A study of Homo sapiens with 4 samples.

Results

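Transcripts listed as known or predicted targets of the miR-17 family were compared in QK-knockdown U87 glioma cells given miR-20a or a scrambled microRNA. With miR-20a, 1 gene, MYLIP, rose and 0 fell past the test (limma; unadjusted p under 0.05 in 10 genes higher and 5 lower). At that unadjusted cut, 15.7% of the member probe sets were higher and 7.23% lower, beside 9.46% and 8.4% of all (limma). Those shares of all are not matched for level. Above the 40th percentile of level, 19.4% of the member probe sets were higher and 6.45% lower, beside 14.2% and 9.06% of all. The members were the probe sets that name exactly 1 gene in the array's annotation, that gene being on a list of 34 published or predicted targets. They comprised 83 of the 41920 probe sets tested and covered 31 of the 34 genes. NCOA3 and PKD2 had no such probe set among those analysed here, and the 11 probe sets that name RUNX1 name other genes too, so these 3 genes are left out of all counts.

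RNA was read on 1 single-colour Affymetrix array per sample, with 2 samples in each of 2 groups. U87 is an established human glioma line. Every sample carried a knockdown of QK (QKI, an RNA-binding protein), and cells without the knockdown were not analysed here. One group had been transduced with miR-20a and the other with miR-NT, a scrambled microRNA that targets nothing by design. The sources used here give neither the vector, nor its promoter, nor the means of knockdown, nor the number of clones. Nothing in the labels says that the 2 samples of a group were separate cultures, and the p-values thus cover the spread between samples that may be technical repeats. In bulk RNA, fewer expressing cells and less RNA per cell cannot be told apart. The amount of miR-20a in the cells was not measured on these arrays.

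A microRNA guides an Argonaute protein to messenger RNAs, mostly through pairing of its seed, bases 2 to 8, with a site in the 3′ UTR. The targeted messenger is then decayed, translated less, or both, so that some targets lose protein with little loss of RNA. Several clusters encode the miR-17 family, the best known of which is induced by MYC, and its published targets include cell cycle, TGF-beta and apoptosis genes. The family is shown here because all its members read the same site. In RefSeq (GRCh38.p14), 8 mature microRNAs share the miR-20a-5p seed. The seed is in capitals, and each sequence reads 5′ to 3′.

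miR-20a-5p: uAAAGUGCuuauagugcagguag
miR-17-5p: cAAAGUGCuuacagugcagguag
miR-106a-5p: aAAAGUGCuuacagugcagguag
miR-20b-5p: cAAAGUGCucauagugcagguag
miR-93-5p: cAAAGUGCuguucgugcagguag
miR-106b-5p: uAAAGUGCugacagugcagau
miR-519d-3p: cAAAGUGCcucccuuuagagug
miR-526b-3p: gAAAGUGCuuccuuuuagaggc

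Counted from the 5′ end, miR-17-5p differs from miR-20a-5p by U1C and U12C, and miR-20b-5p by U1C and U10C. The microRNA miR-519d-3p shares with miR-20a-5p the seed and only 4 of the 15 other bases compared. miR-20a-5p lies at chr13:91351072-91351094, plus strand. Its neighbour in the same cluster, miR-18a-5p, has a seed that differs at 1 base (A4G), and the site read by the miR-20a seed is GCACUUU. The 3′ UTR sequences of the members were not used here, so no member was checked for that site.

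The arrays were alike in scale, with median log2 levels between 6.97 and 7.01 and a correlation of 0.996 within miR-NT, 0.995 within miR-20a and 0.991 to 0.994 across groups. Deposited values are log2 probe-set levels without detection calls, so a low level cannot be told from background. The glioma line's VIM and CD44 were at 14.7 and 12.5 log2 units in miR-NT cells by their highest probe sets, GFAP at 7.11 and S100B at 4.90. For GFAP and S100B, markers of mature astrocytes, presence or absence cannot be stated without a detection call. Of the 7 glioma markers listed, CHI3L1, a secreted glycoprotein of mesenchymal glioma, fell on 2 of its 3 probe sets, by 1.14 and 1.12 log2 units (limma adjusted p = 0.025 and 0.024). No probe set of the other 6 passed, among them NES, with changes of -0.40 and -0.21, and SOX2, with all 4 means lower (-0.02 to -0.25). Of 17 probe sets for 8 epithelial, blood and endothelial markers, 0 passed the test, 14 had a lower mean in miR-20a cells, and their summed log2 level was 98.8 to 99.3 on the miR-NT and 97.7 to 98.1 on the miR-20a arrays. A sign of RNA quality moved with the groups: the ACTB controls read higher at the 3′ than at the 5′ end by 0.20 and 0.35 log2 units with miR-NT and by 0.52 and 0.46 with miR-20a. The GAPDH controls moved the same way but less, with 0.225 and 0.219 against 0.274 and 0.277. The part of these shifts, CHI3L1 included, in the results that follow was not tested. QKI had 6 of its 10 probe sets lower and 4 higher in miR-20a cells, and 0 passed the test.

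Levels were compared with limma over all 41920 probe sets, a change being the log2 level in miR-20a cells minus that in miR-NT cells. Of the 83 member probe sets, 2 rose past an adjusted p of 0.05 (limma, Benjamini-Hochberg over all probe sets) and 0 fell, and both name MYLIP. Over all probe sets 0.136% passed, 0.119% higher and 0.0167% lower. Without adjustment, at a p under 0.05, 13 member probe sets of 10 genes had higher and 6 of 5 genes lower means, against 9.46% and 8.4% of all probe sets. As shares of the 83 these were 15.7% higher and 7.23% lower. The shares of all probe sets are not matched to the members for level. Above the 40th percentile of level, 19.4% of 62 members were higher and 6.45% lower, beside 14.2% and 9.06% of all. Below it, 4.76% of 21 members were higher and 9.52% lower, beside 2.385% and 7.41% of all. MYLIP alone gave 4 of the 13, and without it 11.7% of 77 probe sets were higher and 7.79% lower. The shares without MYLIP were not split by level.

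**Figure D1:**
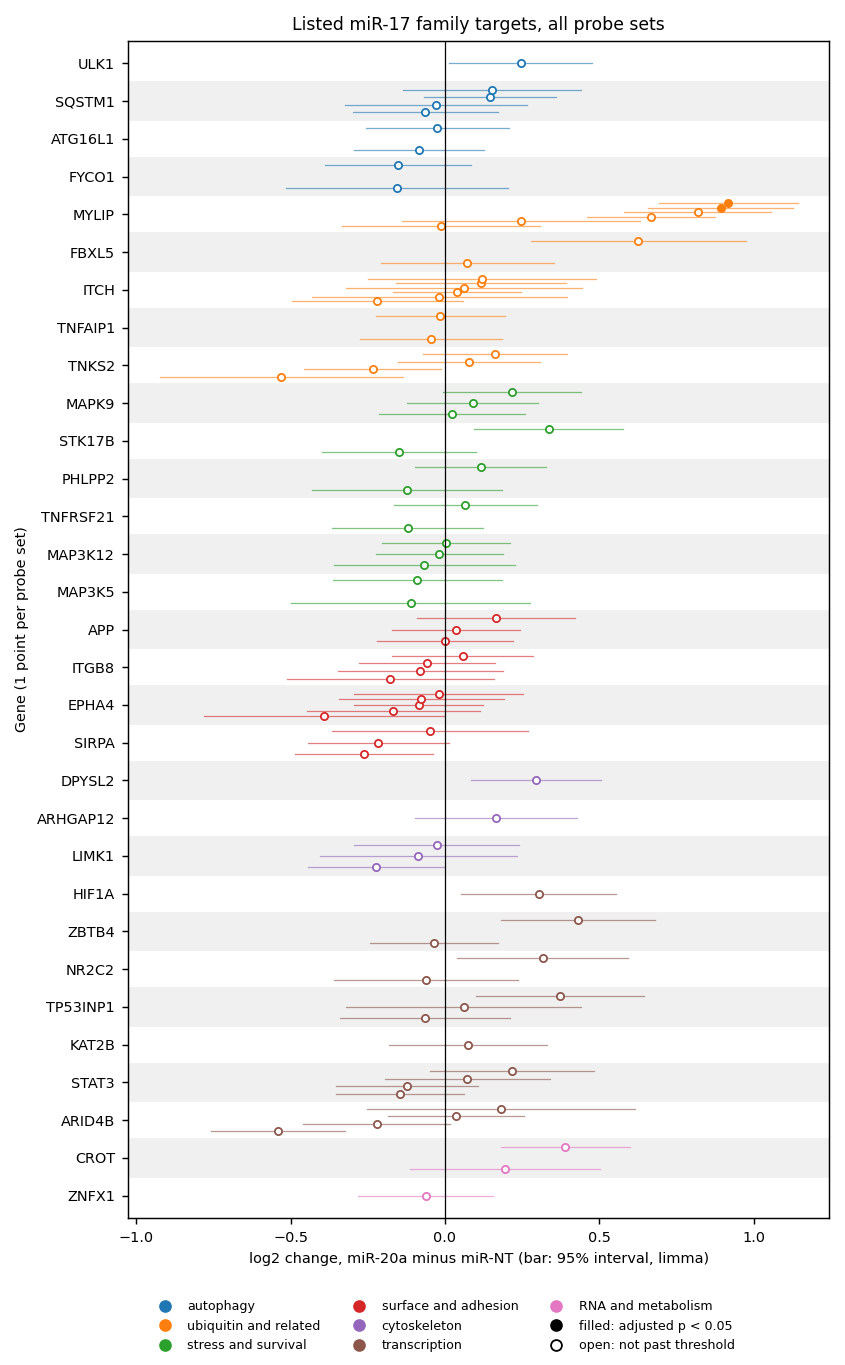
Log2 change (miR-20a minus miR-NT) of all 83 member probe sets with 95% limma intervals, by gene and role; filled points passed the threshold. The 2 filled points, both of MYLIP, lie to the right of 0, and all other points are open.

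The median change of the members was -0.01 log2 units, beside -0.02 over all probe sets. The means were lower in 43 members and higher in 40, which is 51.8% lower against 55.3% of all probe sets. Above the 40th percentile of level, 48.4% of the members and 49.98% of all were lower, and below it 61.9% and 63.2%. The counts by role below stand beside the 55.3% of all probe sets, which does not match them for level. Their counts at an unadjusted p under 0.05 (limma) stand beside 9.46% higher and 8.4% lower over all, also not matched for level. Counted by arrays that do not overlap, 22 members (26.5%) had both miR-20a arrays above both miR-NT arrays and 17 (20.5%) had both below, beside 21.7% and 27.2% of all probe sets. Above the 40th percentile of level these shares were 32.3% and 21.0% of the members, beside 29.3% and 27.1% of all. Below it they were 9.52% and 19.05%, beside 10.4% and 27.3%. The sign of the median turned positive, to 0.02, when each array was centred on its own median, which moved the median of all probe sets to 0.01. The quartiles of the members were -0.09 and 0.16, beside -0.13 and 0.10 over all.

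The 95% interval of the change lay above a fall of 1.5-fold, -0.58 log2 units, in 80 of 83 member probe sets (96.4%), beside 96% of all probe sets. The 3 whose interval reached such a fall were 1 each of ARID4B, EPHA4 and TNKS2. No member had a point estimate beyond a 1.5-fold fall, while 5 probe sets, 4 of MYLIP and 1 of FBXL5, were beyond a 1.5-fold rise. Over all probe sets these shares were 0.153% and 0.756%. The half-width of the interval, which is that of a single test without adjustment, was 0.24 log2 units in the median member. A call after adjustment needed more, and a change of -0.54 on a probe set of ARID4B did not pass.

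**Figure D2:**
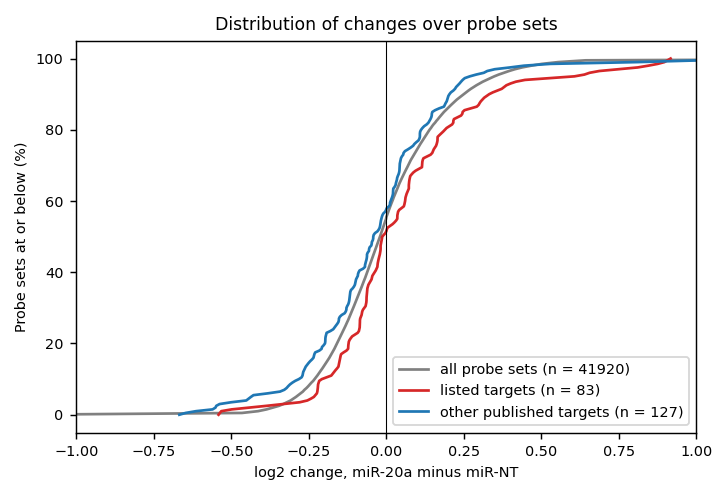
Cumulative share of probe sets (%) against log2 change for all 41920 probe sets, the 83 listed targets and 127 probe sets of other published targets. The shares below 0 are 55.3%, 51.8% and 57.5%.

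Enzymes that attach ubiquitin or a related mark held 20 member probe sets of 5 genes, of which 2, both of MYLIP, rose and 0 fell; 13 means were higher and 7 lower. MYLIP, also called IDOL, is a ubiquitin ligase that sends the LDL receptor for degradation and is a known target of the sterol-sensing LXR receptors. Probe set 223130_s_at was at 8.21 and 8.10 log2 units with miR-NT and at 9.12 and 9.03 with miR-20a. Its rise of 0.92 ± 0.09 log2 units (SE, n = 2 each, limma adjusted p = 0.037) corresponds to 1.89-fold. Probe set 228098_s_at was at 8.17 and 8.24 with miR-NT and at 9.17 and 9.02 with miR-20a, a rise of 0.89 ± 0.10 (SE, limma adjusted p = 0.043). The groups did not overlap on either, and the gap between groups was several times that within them.

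Not every MYLIP probe set moved, however. Probe set 220319_s_at had a change of 0.82 ± 0.10 and 223129_x_at one of 0.67 ± 0.09, with adjusted p-values of 0.061 and 0.071 (limma) that missed the threshold, and on both the groups did not overlap. Probe set 227707_at was at 7.76 and 7.55 with miR-NT and 7.49 and 7.80 with miR-20a, and its change of -0.01 came with overlapping groups. 228097_at, drawn from the same sequence record as 228098_s_at, was at 4.56 and 4.87 against 5.16 and 4.77. Its change was 0.25 with overlapping groups, at a level below the 40th percentile on the array. So 4 of 6 probe sets shared a change of 0.67 to 0.92 and the other two did not. Where on the transcript each probe set lies is not given in the sources used here.

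Leaving out 1 array kept the 2 called probe sets between 0.82 and 0.97 log2 units, but both adjusted p-values were above 0.05 (limma) without miR-NT replicate 1, without miR-NT replicate 2 and without miR-20a replicate 1. Over all probe sets, 0 passed without either miR-NT array (limma; at an unadjusted p under 0.05, 1859 were higher and 1372 lower without replicate 1, and 2862 and 2235 without replicate 2). After quantile normalization 3 MYLIP probe sets passed.

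**Figure D3:**
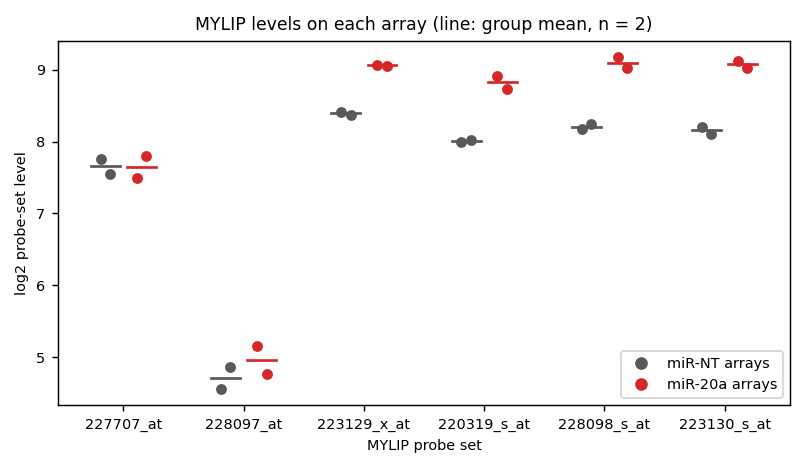
Log2 level of each of the 6 MYLIP probe sets on the 2 miR-NT and 2 miR-20a arrays, with group means as lines. The 4 probe sets on the right separate the groups by 0.67 to 0.92 log2 units, and the 2 on the left do not separate them.

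FBXL5, the iron-sensing subunit of a ubiquitin ligase that degrades iron regulatory proteins, had the next largest change. The probe set with its highest mean was at 7.49 and 7.89 with miR-NT and at 8.39 and 8.24 with miR-20a, a change of 0.63 ± 0.15 (SE, limma adjusted p = 0.14) that did not pass. Its miR-NT arrays had an SD of 0.28 and the groups did not overlap. The other probe set of FBXL5 had a change of 0.07. ITCH, a ligase of the HECT type, had changes from -0.22 to 0.12 over 6 probe sets, 4 of them higher. TNFAIP1, an adaptor of cullin ligases, had changes of -0.01 and -0.04.

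TNKS2, a tankyrase that marks proteins with ADP-ribose chains for degradation, went both ways by probe set. Probe set 222562_s_at was at 6.57 and 6.31 against 6.13 and 5.69, a change of -0.53 ± 0.16 (SE, limma adjusted p = 0.19) that was -0.31 without miR-20a replicate 2. Probe set 222563_s_at was at 6.29 and 6.42 against 6.10 and 6.14, a change of -0.23, with no overlap. Both lie below the 40th percentile of level on the array, and 218228_s_at, which lies above it, had a change of 0.08. The fourth, 241909_at, also below it, had a change of 0.16 with no overlap. These TNKS2 values were singled out after they were seen.

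Of the 9 autophagy probe sets, 3 had higher and 6 lower means, and 0 passed (limma; 1 higher at an unadjusted p under 0.05). ULK1, the kinase that starts autophagosome formation, was at 7.92 ± 0.10 with miR-NT and 8.17 ± 0.04 with miR-20a (SD, n = 2 each), a change of 0.24 ± 0.10 (SE, limma adjusted p = 0.26) by its only probe set. SQSTM1, the cargo receptor p62, had changes of -0.06 to 0.15 over 4 probe sets. ATG16L1, part of the complex that attaches LC3 to lipid, had changes of -0.02 and -0.08, and the first turned positive under the other 3 scalings. FYCO1 links autophagosomes to kinesin motors. The probe set with its highest mean was at 9.48 and 9.47 against 9.23 and 9.41, a change of -0.15 (limma adjusted p = 0.47), and the other one also had a change of -0.15.

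Kinases, phosphatases and receptors of stress and survival had 7 higher and 7 lower means among 14 probe sets (10 lower after quantile normalization and cyclic loess, 6 after centring), and 0 passed (limma; 1 higher at an unadjusted p under 0.05). MAP3K12, the kinase DLK of injured neurons, had changes of 0.00, -0.02 and -0.07. MAP3K5, the apoptosis signal-regulating kinase ASK1, was at 7.44 and 7.43 with miR-NT and at 7.48 and 7.21 with miR-20a, a change of -0.09 with overlapping groups. MAPK9, a JNK kinase, had 3 probe sets with changes of 0.02, 0.09 and 0.22, the first of which turned negative after quantile normalization and cyclic loess. STK17B, a kinase linked to apoptosis, was at 6.23 and 6.42 against 6.66 and 6.67, a change of 0.34 ± 0.10 (SE, limma adjusted p = 0.19). That level is below the 40th percentile, and its other probe set had a change of -0.15. PHLPP2, a phosphatase acting on AKT, had changes of 0.12 and -0.12, and TNFRSF21, the death receptor DR6, of 0.07 and -0.12.

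Surface and adhesion proteins had lower means in 12 of 15 probe sets, and in 10 or 11 under the other scalings. The 15 came from 4 genes, and 55.3% of all probe sets had lower means. All 4 of ITGB8 and 2 of EPHA4 lay below the 40th percentile of level, where 63.2% of all probe sets were lower. Of the 15, 0 passed (limma; 2 lower at an unadjusted p under 0.05, beside 8.4% of all). SIRPA, the inhibitory receptor for CD47, had all 3 probe sets lower, under each scaling tried. The highest was at 8.92 and 8.97 with miR-NT and 8.74 and 8.62 with miR-20a, with no overlap and a change of -0.26 ± 0.09 (SE, limma adjusted p = 0.23). The second had a change of -0.22, again with no overlap, and the third one of -0.05 with overlap. EPHA4, a receptor for ephrins, had all 5 probe sets lower, from -0.02 to -0.39, of which 4 were lower under the other scalings. Its largest change, on 229374_at, came from 7.07 and 7.56 against 6.98 and 6.86, and shrank to -0.15 without miR-NT replicate 2. ITGB8, the integrin subunit that helps release TGF-beta from its latent form, had changes of -0.18 to 0.06 at levels below the 40th percentile. APP, the amyloid precursor protein, had changes of 0.00, 0.04 and 0.17.

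Of 5 cytoskeletal probe sets, 2 had higher and 3 lower means and 0 passed (limma; 1 each way at an unadjusted p under 0.05). DPYSL2, a tubulin-binding protein of growing neurites, was at 11.43 and 11.46 with miR-NT and 11.77 and 11.71 with miR-20a. The change of 0.30 ± 0.09 (SE, limma adjusted p = 0.19) did not pass, although both miR-20a arrays were above both miR-NT arrays. It was 0.14 after quantile normalization and 0.15 after cyclic loess. LIMK1, which inactivates the actin-severing protein cofilin, had changes of -0.03, -0.09 and -0.22, and the first turned positive under the other scalings. The probe set with its highest mean was at 8.91 and 8.58 against 8.74 and 8.58, so the miR-20a arrays lay within the range of the miR-NT arrays. ARHGAP12 had a change of 0.17 by its only probe set, with overlapping groups.

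Transcription factors and chromatin proteins had 10 higher and 7 lower means among 17 probe sets, and 0 passed (limma; unadjusted p under 0.05 in 4 higher and 1 lower). HIF1A, the oxygen-regulated factor, was at 12.31 and 12.49 with miR-NT and at 12.75 and 12.65 with miR-20a, a change of 0.30 ± 0.10 (SE, limma adjusted p = 0.22) that was 0.18 after quantile normalization and 0.15 after cyclic loess. TP53INP1, a p53-induced protein of stress and autophagy and a widely cited target of this family, was at 8.49 and 8.44 against 8.97 and 8.71, a change of 0.37 ± 0.11 (SE, limma adjusted p = 0.19). Without miR-20a replicate 1 it was 0.24, and its other probe sets had changes of 0.06 and -0.06. NR2C2, the orphan nuclear receptor TR4, had changes of 0.32 and -0.06, the first of which was 0.18 without miR-20a replicate 1. ZBTB4, a zinc finger protein that binds methylated DNA, had a change of 0.43 ± 0.10 on 1 probe set (SE, limma adjusted p = 0.15) and of -0.04 on the other.

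STAT3, the cytokine-activated factor, had its probe sets at -0.15, -0.12, 0.07 and 0.22. On 208992_s_at the arrays read 10.06 and 10.04 in miR-NT and 9.93 and 9.88 in miR-20a cells, and on 225289_at they read 8.69 and 8.74 against 9.05 and 8.80. Neither overlapped, and they point in opposite directions. KAT2B, the acetyltransferase PCAF, had a change of 0.07 with overlapping groups.

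ARID4B, a subunit of the SIN3 histone deacetylase complex, had the most negative single probe set of the 83. On 214139_at the arrays read 6.83 and 6.73 with miR-NT and 6.27 and 6.22 with miR-20a. This change of -0.54 ± 0.09 (SE, limma adjusted p = 0.12) passed the threshold when the lowest 40% of probe sets were left out of the fit. A second probe set had a change of -0.22 without overlap and the others 0.18 and 0.04. A further probe set that names both ARID4B and its neighbour RBM34, and is thus no member, had a change of 0.43. These ARID4B values were singled out after they were seen.

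Of the remaining genes, CROT is a carnitine acyltransferase of peroxisomes. Its probe set 204573_at was at 8.34 and 8.35 with miR-NT and 8.76 and 8.71 with miR-20a, a change of 0.39 ± 0.09 (SE, limma adjusted p = 0.14). The other, with overlap, had a change of 0.19. ZNFX1, a helicase-like protein of antiviral defence, had a change of -0.06.

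**Figure D4:**
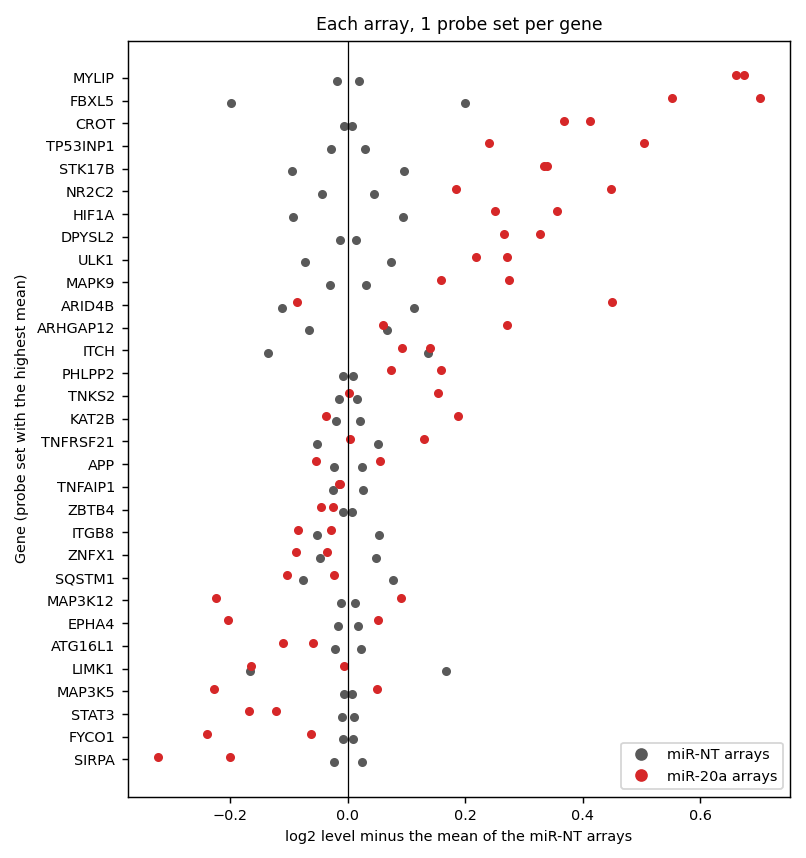
Log2 level on each array minus the mean of the miR-NT arrays, for the probe set of each of the 31 genes with the highest mean. MYLIP leads, its miR-20a arrays both near 0.67. The miR-20a arrays also lie above both miR-NT arrays for FBXL5, CROT, TP53INP1, STK17B, NR2C2, HIF1A, DPYSL2, ULK1, MAPK9 and PHLPP2. In the lower part of the plot, the miR-20a arrays of SIRPA, FYCO1, STAT3, ATG16L1 and ZBTB4 lie below both miR-NT arrays. Over all probe sets on the array, 21.7% separate upward and 27.2% downward.

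Probe sets of 1 gene often disagreed in sign. Of 25 member genes with 2 or more probe sets, 10 (40%) had all on the same side, beside 43.9% of the 9835 such genes on the array. The 7 with all lower were FYCO1, EPHA4, LIMK1, MAP3K5, SIRPA, ATG16L1 and TNFAIP1, and the 3 with all higher were MAPK9, FBXL5 and CROT. Under every scaling tried, FYCO1, MAP3K5 and SIRPA remained all lower and FBXL5 and CROT all higher. With 1 array left out, only CROT of these kept its sign on every probe set. FYCO1 218204_s_at then reached 0.07, SIRPA 202897_at 0.13 and FBXL5 209005_at -0.06. The MAP3K5 probe sets reached 0.05 and 0.13. The gap between a gene's highest and lowest probe set was 0.23 log2 units in the median member gene and 0.22 over all genes. In no member gene did every one of several probe sets separate the groups in 1 direction.

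Other published targets of the family, on a list of 41 genes of which 38 were measured by 127 probe sets, also went both ways. Of these, 1 probe set, that of the TGF-beta family decoy receptor BAMBI, rose by 1.17 (limma adjusted p = 0.034) and 0 fell, and the median change was -0.04. At an unadjusted p under 0.05, 6 probe sets were higher and 19 lower, shares of 4.72% and 15% beside 9.46% and 8.4% of all. The lower ones included all 3 of TXNIP, an inhibitor of thioredoxin, with changes of -0.44, -0.55 and -0.64. They also included 3 of 4 of VEGFA, the angiogenic growth factor, with -0.26, -0.35 and -0.43. Both probe sets of E2F1 (-0.31 and -0.27) and of TGFBR2 (-0.53 and -0.27) were among them too. Of the higher ones, SMAD7 had a change of 0.93 (limma adjusted p = 0.065). ABCA1, a cholesterol exporter and, like MYLIP, a known LXR target, had changes of -0.55 and -0.45 on 203504_s_at and 203505_at (limma adjusted p = 0.11 and 0.14), and of -0.06 and -0.10 on its other 2 probe sets. This list was chosen with earlier results of these data known, so its shares are no independent evidence. Whether this list differs from the 34 members was not tested.

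The silencing machinery through which a microRNA acts was measured by 36 probe sets of 11 genes, and 0 passed (limma; unadjusted p under 0.05 in 2 higher and 2 lower). These were 5.56% each way, beside 9.46% and 8.4% of all probe sets. Means were lower in 25 of the 36 (69.4%, beside 55.3% of all). Without overlap of the arrays, 14 were lower and 4 higher. As shares these were 38.9% and 11.1%, beside 27.2% and 21.7% of all. AGO2, the Argonaute that can cut its target, had a change of -0.04 and DROSHA, the nuclease that frees microRNA hairpins, one of 0.26. MIR17HG, the host transcript of miR-20a, was at 3.97 ± 0.01 with miR-NT and 4.20 ± 0.03 with miR-20a (SD, n = 2 each, limma adjusted p = 0.26). That level is below the 40th percentile and cannot be told from background. MCM7, a replicative helicase subunit whose gene hosts miR-93 and miR-106b, had changes of 0.01 and -0.30, the latter with an adjusted p of 0.21 (limma).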

How the data were processed

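The deposited table holds log2 probe-set levels of 4 arrays. Per the submitters' processing notes the authors used the R package affy, with no version; how they corrected background, normalized and summarized is not given in the sources used here, nor is a genome build. Log2 was inferred from the values (highest 15.07). Of 41930 probe sets, 10 array controls were left out. Names came from GEO's platform annotation: 37465 probe sets name 1 gene, 1727 several and 2728 none. All 83 member symbols matched RefSeq (GRCh38.p14) by Entrez identifier. The deposited normalization was kept and no filter was applied.

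Fits used limma 3.58.1 in R 4.3.3 (lmFit, eBayes; intercept and group; 4.60 prior degrees of freedom, prior SD 0.103), two-sided, with Benjamini-Hochberg adjustment over 41920 probe sets and a threshold of 0.05; the fit was tested on simulated data. An exact permutation test of 2 against 2 arrays cannot give a p below 0.333. Same-numbered arrays deviated with a correlation of -0.12 and were not treated as pairs. No 2 arrays shared more than 128 equal values.

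The members, lists and tests were chosen with earlier results of these data known. All listed genes with a member probe set are named. Values on every array were given for genes past the threshold and for the 5 highest and 5 lowest by their brightest probe set, and for others singled out by role or after being seen. Mature microRNAs came from RefSeq. Alternatives were a replicate block, quantile, median and cyclic loess scaling, a filter below the 40th percentile, a trend and robust fit, 1 value per gene, a threshold of 0.10, leaving out each array, and, added after seeing the data, a crossed block.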

Additional observations from a re-analysis of the deposited data

Results flagged for a closer look

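Signals were seen in probe sets counted in none of the gene lists. Probe set 212591_at, which names ARID4B together with RBM34 and was tested only as part of the whole table, had a change of 0.428 log2 units, with both miR-20a arrays above both miR-NT arrays (limma adjusted p = 0.15). The ACTB control probe sets had a mean 3′ minus 5′ difference of 0.486 log2 units on the miR-20a arrays, above the 0.272 of the miR-NT arrays. For the GAPDH control probe sets these means were 0.275 and 0.222. Their part in the results was not tested.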

How the results depend on the processing

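Over the 41920 probe sets, 57 passed (50 higher, 7 lower). The count was 0 with the replicate block (limma; unadjusted p under 0.05 in 3169 higher and 2585 lower), 334 without probe sets below the 40th percentile, 957 with a trend and robust fit, 153 with the mean of probe sets per gene, 159 at a threshold of 0.10 and 0 to 66 with 1 array left out. With the crossed block, chosen after seeing the data, it was 0 (limma; 3977 higher and 3366 lower unadjusted). The split was 53 higher and 13 lower after quantile normalization, 71 and 7 after centring and 43 and 9 after cyclic loess. Arrays share only a replicate number, so the replicate block is no paired analysis.

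Member probe sets past the threshold, 2 in the fit reported, were 0 with the replicate block and the crossed block, 5 without low probe sets, 4 with the trend and robust fit, 1 with either value per gene, 4 at 0.10 and 0 to 3 with 1 array left out. Member genes past it, 1 as reported, were 0 with either block, 2 (MYLIP and ARID4B) without low probe sets and 0 to 1 with 1 array left out. Member probe sets higher at an unadjusted p under 0.05, 13 as reported, were 7 with the mean per gene and 8 to 16 with 1 array left out. The 6 lower ones were 2 with the replicate block, 3 after centring, 1 with 1 probe set per gene, 0 with the mean per gene and 1 to 9 with 1 array left out. Values per gene test 31 genes in place of 83 probe sets, and otherwise the cause was not tested.

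The members' median, -0.013, was 0.0205 after centring, 0.0130 without low probe sets, 0.0745 with 1 probe set per gene, 0.0163 with the mean per gene and -0.0184 to 0.0423 with 1 array left out. Signs turned with the mean per gene for APP (0.0669), ARID4B (-0.136), PHLPP2 (-0.00343), SQSTM1 (0.0518), STAT3 (0.00526), TNFRSF21 (-0.0270), TNKS2 (-0.132) and ZBTB4 (0.198). They turned after centring for APP (0.0328) and TNFAIP1 (0.0186), and for TNFRSF21 after quantile normalization (-0.0600) and cyclic loess (-0.0542). With 1 array left out, values ranged across 0 for APP (-0.0551 to 0.0537), ARID4B 221230_s_at (-0.0863 to 0.449), EPHA4 206114_at (-0.205 to 0.0513), ITCH 209744_x_at (-0.0207 to 0.252), KAT2B (-0.0383 to 0.187), LIMK1 204357_s_at (-0.253 to 0.0818), MAP3K12 230921_s_at (-0.224 to 0.0908), MAP3K5 203836_s_at (-0.227 to 0.0491), SQSTM1 201471_s_at (-0.140 to 0.0131) and TNFAIP1 201207_at (-0.0406 to 0.0108). Of 83 member probe sets, 70 kept 1 sign under the 3 scalings and 50 under the 4 leave-outs. Signal over background is not given, so levels below the 40th percentile are the least certain.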

Other observations

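The 11 probe sets that name RUNX1 along with other genes had changes of -0.29 to 0.11 log2 units, 8 of them lower and 3 higher. RUNX1 is a transcription factor of blood cell formation. None of these probe sets was counted among the members.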
